A study of Mus musculus with 6 samples.

Results

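The genes described here are 38 genes of the contractile and calcium-handling apparatus of heart and skeletal muscle, measured in RNA from whole mouse lung. They were picked by gene symbol from a written list of muscle genes, and all 38 were found among the 57180 gene rows measured. By textbook expression they fall into 5 roles: 4 atrial genes, 6 cardiac-restricted genes, 6 genes of heart and slow skeletal fibres, 7 genes of all striated muscle and 15 fast skeletal genes. The first 4 roles together hold the 23 genes that heart muscle expresses.

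Lung RNA was sequenced from 3 wild-type samples and 3 samples that overexpress FTO, an RNA demethylase of N6-methyladenosine. All 6 came from mice exposed to cigarette smoke, so the groups share that exposure and differ by genotype, and no unexposed lung was analysed here. The libraries are called WT 1 to WT 3 and FTO-OE 1 to FTO-OE 3, after the replicate numbers in the labels. The labels used here do not state how or in which cells FTO was overexpressed, the strain, the age, or whether every library had its own mouse. The p-values then measure only the spread between these samples, which may be technical. Levels are normalised read counts as CPM, counts scaled to a common library size, after TMM scaling, which corrects library totals for composition. Totals ran from 16731850 to 21444907 counts. Fto itself stood at 66.1 to 69.8 CPM in the wild-type libraries and at 649.0 to 739.9 CPM in the FTO-overexpressing libraries, so all 6 libraries carried the Fto level their label names. A list of 7 lung genes, of surfactant, club, alveolar type 1 and endothelial cells, summed to 35280 CPM or more in every library, so the labelled tissue was present throughout.

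Striated muscle shortens when myosin heads pull on actin filaments after calcium released through ryanodine receptors binds troponin C, and calcium pumps then return the ion to the sarcoplasmic reticulum. For many of these parts heart and skeletal muscle use different members of the same gene families, so those paralogs help to tell the muscle type. Other members are shared by heart and slow skeletal fibres or by all striated muscle. In rodents a sleeve of atrial-type heart muscle extends from the left atrium along the pulmonary veins into the lung. Airway and vessel walls hold smooth muscle, which uses other actin and myosin genes.

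The promoters of 4 genes on which the results turn are shown first, since these genes separate the libraries: Myl7 (atrial myosin light chain) and Nppa (atrial natriuretic peptide) for the heart-type genes, and Acta1 (skeletal alpha-actin) and Myh4 (fast myosin heavy chain, type 2B) for the fast skeletal genes. Each is the 250 bases before the transcription start, 5′ to 3′ on the gene's strand, from RefSeq on build GRCm38.p6. Capitals mark matches to motifs bound by muscle or general factors. They lie at chr11:5898783-5899032 on the minus strand for Myl7, chr4:148000472-148000721 on the plus strand for Nppa, chr8:123894776-123895025 on the minus strand for Acta1 and chr11:67237562-67237811 on the plus strand for Myh4.
Myl7: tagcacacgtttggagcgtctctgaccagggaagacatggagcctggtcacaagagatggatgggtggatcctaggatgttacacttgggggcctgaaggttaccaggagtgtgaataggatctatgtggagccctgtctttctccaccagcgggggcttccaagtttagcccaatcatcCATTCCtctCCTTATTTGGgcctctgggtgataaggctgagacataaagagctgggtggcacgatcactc
Nppa: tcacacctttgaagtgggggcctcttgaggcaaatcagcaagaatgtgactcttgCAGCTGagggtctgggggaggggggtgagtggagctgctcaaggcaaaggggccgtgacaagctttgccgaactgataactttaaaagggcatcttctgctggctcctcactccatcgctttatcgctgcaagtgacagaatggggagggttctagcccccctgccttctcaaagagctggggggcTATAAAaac
Acta1: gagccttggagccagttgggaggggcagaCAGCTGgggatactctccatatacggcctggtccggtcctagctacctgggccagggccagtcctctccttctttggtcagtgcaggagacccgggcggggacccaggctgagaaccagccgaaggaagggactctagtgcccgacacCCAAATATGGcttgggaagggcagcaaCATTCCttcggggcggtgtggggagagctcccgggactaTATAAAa
Myh4: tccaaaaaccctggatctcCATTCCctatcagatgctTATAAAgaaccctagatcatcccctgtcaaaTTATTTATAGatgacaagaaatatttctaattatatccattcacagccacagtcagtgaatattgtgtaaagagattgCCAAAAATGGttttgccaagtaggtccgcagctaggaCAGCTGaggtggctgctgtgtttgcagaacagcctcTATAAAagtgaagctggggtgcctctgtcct

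The motifs searched were the MEF2 and CArG motifs by their names, MCAT (CATTCC) and the myogenic E-box (CAGCTG) on both strands, and the TATA motif (TATAAA) on the gene's strand. No match of one motif overlapped a match of another in the promoters of these genes. The Myl7 promoter held a CArG and an MCAT match, and the Nppa promoter an E-box and a TATA match. Acta1 held all of these but MEF2, and Myh4 held all 5 motifs. The RefSeq promoter table used here matched 32 of the 38 genes, with 39 promoters. Of these, 35.9% held the E-box against 13.0% of all 32851 promoters of the same length. The CArG motif was in 15.4% against 1.47%, MEF2 in 17.9% against 2.92%, MCAT in 23.1% against 12.6% and TATA in 12.8% against 7.59%. Some promoters of the same gene overlapped, so the CArG site of Ldb3 and the E-box of Mb were each counted in more than 1 promoter. A match describes these letters only and is no evidence of binding.

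Heart-type transcripts were present in all 6 libraries, at levels that differed 18.5-fold between the lowest and the highest library. The 10 atrial and cardiac-restricted genes summed to 157.3, 77.5 and 675.4 CPM in WT 1 to WT 3 and to 219.9, 1438 and 329.2 CPM in FTO-OE 1 to FTO-OE 3. The 95% exact Poisson intervals, which cover counting error only, ran from 73.6 to 81.6 CPM in WT 2 and from 1420 to 1456 CPM in FTO-OE 2, and no 2 libraries' intervals overlapped. FTO-OE 2 and WT 3 were the highest libraries and WT 2 the lowest, so the order of libraries crossed the groups. Of the 77.5 CPM in WT 2, Actc1 alone held 46.0 CPM. This gene ranged only 5.63-fold, so the level of WT 2 and the range of the sum depend much on it. Fast skeletal transcripts had another distribution. The 15 fast skeletal genes summed to 7.52, 6.56 and 8.35 CPM in the wild-type libraries and to 7.41, 13.6 and 131.4 CPM in the FTO-overexpressing libraries. FTO-OE 3 was 20.0 times the lowest library, while the other 5 lay within 6.56 and 13.6 CPM. In whole lung RNA a larger amount of a cell type and more RNA per cell cannot be told apart.

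**Figure D1:**
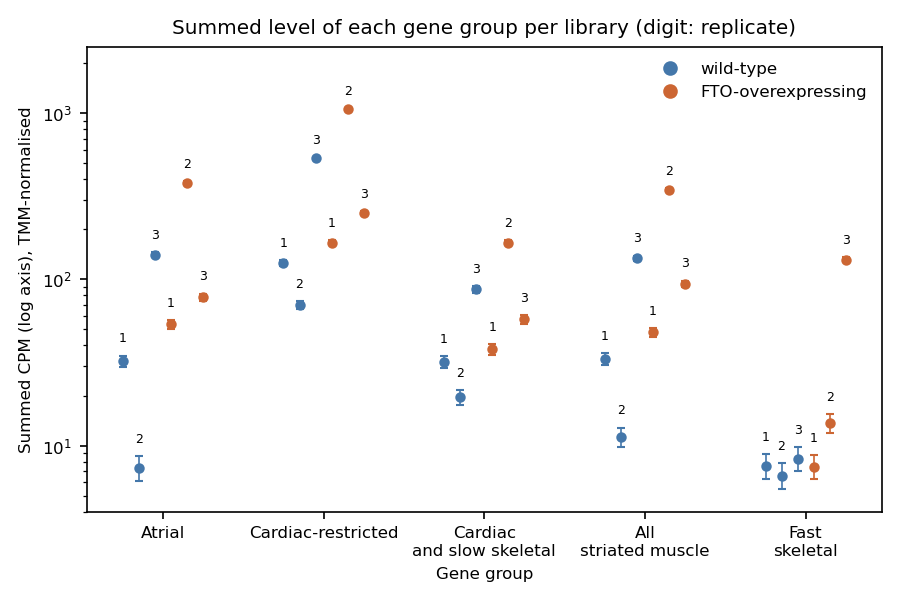
Summed TMM-normalised CPM of each gene group (log axis) in each library, with 95% exact Poisson intervals; blue points are wild-type, orange points FTO-overexpressing, and the digit is the replicate. FTO-OE 2 is highest in the 4 groups that heart muscle expresses, and FTO-OE 3 stands apart in the fast skeletal group at 131.4 CPM.

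The atrial genes gave the widest range, 52.0-fold in their sum. Myl4 and Myl7 encode the essential and regulatory myosin light chains of the atrium. Myl7 was at 14.9, 3.15 and 70.1 CPM in the wild-type libraries and at 25.1, 149.3 and 35.6 CPM in the FTO-overexpressing libraries. Myl4 followed at 14.7, 3.73 and 58.3 CPM and at 23.6, 134.6 and 34.7 CPM. For both, WT 3 lay above FTO-OE 1 and FTO-OE 3, so the groups overlapped. Sln encodes sarcolipin, a small inhibitor of the calcium pump that in the mouse heart is atrial. It was at 1.73, 0.315 and 8.57 CPM and at 3.35, 17.4 and 3.64 CPM, in the same order of libraries. The ventricular regulatory light chain gene Myl2, not one of the 38, had 0, 1 and 0 counts in the wild-type libraries and 0, 0 and 3 counts in the FTO-overexpressing libraries. With 0 Myl2 counts beside 2630 Myl7 counts in FTO-OE 2, the exact 95% upper limit on its share of that pair was 0.140%. Of the other 3 genes of the ventricular list, Irx4 had 0 counts in every library and Nppb (B-type natriuretic peptide) at most 9. Myl3, the essential light chain of the ventricle and of slow fibres, was at 1.08, 0.0525 and 5.60 CPM and at 2.44, 9.08 and 4.10 CPM. Myl3 thus had the heart order.

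Nppa, whose product is the hormone that atrial myocytes release on stretch, departed from the other atrial genes most in FTO-OE 2. It was at 0.704, 0.105 and 3.85 CPM in the wild-type libraries and at 1.52, 78.0 and 4.33 CPM in the FTO-overexpressing libraries. FTO-OE 2 was 20.3 times WT 3 for Nppa. The ratio of the same libraries was 1.56 to 3.08, with a median of 2.15, for 21 of the other 22 heart-expressed genes, and 1.14 for Myh7. As a share of Nppa and Myl7 reads together, Nppa made up 4.50%, 3.23% and 5.20% in the wild-type libraries and 5.71%, 34.3% and 10.8% in the FTO-overexpressing libraries. The exact 95% interval in FTO-OE 2 was 32.9% to 35.8%, apart from that in FTO-OE 3, 8.85% to 13.1%. The FTO-OE 3 interval in turn lay above those of WT 1, WT 3 and FTO-OE 1, and overlapped that of WT 2, where Nppa had 2 counts. Myl4 and Sln kept a near-constant proportion to Myl7 in all 6 libraries, at 45.4% to 54.2% and 9.09% to 11.8% of the reads of the pair.

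**Figure D2:**
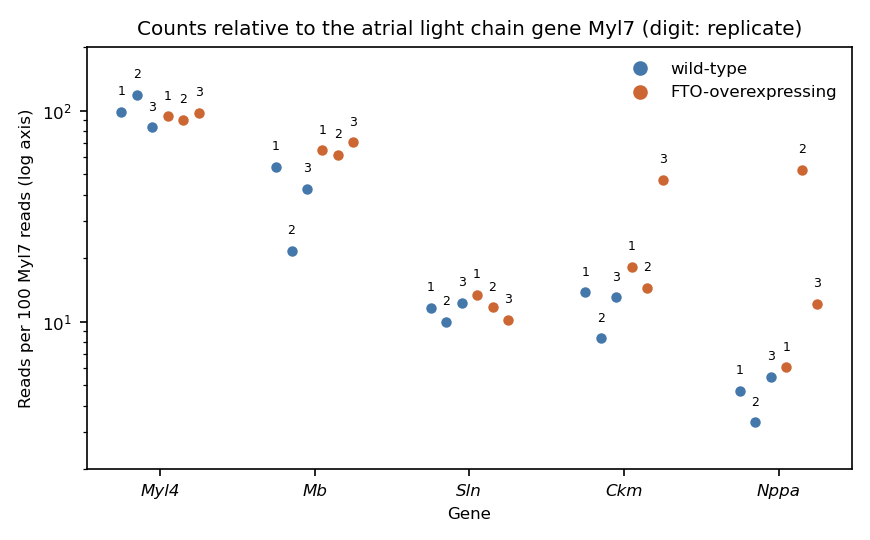
Counts of 5 genes per 100 Myl7 counts (log axis) in each library; blue points are wild-type, orange points FTO-overexpressing, and the digit is the replicate. Myl4 and Sln stay level across libraries, Nppa stands out in FTO-OE 2 at 52.3 per 100 and Ckm in FTO-OE 3 at 47.1 per 100.

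The cardiac-restricted genes encode the filaments and calcium release channel of the heart. Myh6, the alpha-myosin heavy chain of the atrium and the adult mouse ventricle, was at 36.5, 7.61 and 246.8 CPM in the wild-type libraries and at 51.8, 498.6 and 92.5 CPM in the FTO-overexpressing libraries. Cardiac troponin I, Tnni3, which blocks actin and myosin when calcium is low, was at 6.71, 2.15 and 37.3 CPM and at 12.8, 75.0 and 19.3 CPM. Cardiac troponin T, Tnnt2, was at 20.1, 8.97 and 88.9 CPM and at 27.6, 146.7 and 39.2 CPM. In all 3 the order was FTO-OE 2, WT 3, FTO-OE 3, FTO-OE 1, WT 1 and WT 2, from high to low. Actc1, cardiac alpha-actin, had a narrower range, with 52.7, 46.0 and 125.4 CPM and 61.8, 258.5 and 82.8 CPM. Ryr2, the cardiac ryanodine receptor, was at 8.17, 5.30 and 28.4 CPM and at 9.39, 56.2 and 14.9 CPM. WT 2 held 1.53% of the FTO-OE 2 level for Myh6 and 2.11% for Myl7, but 9.43% for Ryr2 and 17.8% for Actc1, so the low library kept more of some heart genes than of others. Mybpc3, cardiac myosin-binding protein C, ran from 0.262 CPM in WT 2 to 23.6 CPM in FTO-OE 2. Reads of Actc1 and of the similar actin genes Acta1 and Acta2 can be divided between them in counting, so the lower levels of one in the presence of much of another are uncertain.

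Of the 6 genes shared by heart and slow skeletal fibres, 5 followed the heart order and Myh7 did not. Pln, phospholamban, the inhibitor of the cardiac calcium pump, was at 3.90, 0.735 and 19.7 CPM in the wild-type libraries and at 7.06, 45.4 and 9.95 CPM in the FTO-overexpressing libraries. Tnnc1, the calcium sensor troponin C of heart and slow fibres, was at 2.06, 1.15 and 12.0 CPM and at 5.02, 30.1 and 8.06 CPM. Casq2, the cardiac calcium store protein calsequestrin, was at 2.76, 0.525 and 14.0 CPM and at 4.31, 26.1 and 6.45 CPM. These 3 again had FTO-OE 2 and WT 3 highest and WT 2 lowest. Myoz2, a Z-disc protein that binds calcineurin, was at 3.25, 0.682 and 13.3 CPM and at 5.38, 20.9 and 6.36 CPM. Csrp3, the muscle LIM protein, ran from 0.630 CPM in WT 2 to 24.9 CPM in FTO-OE 2.

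Myh7, the beta-myosin heavy chain of the ventricle and of slow fibres, was nearly level. It was at 17.3, 15.7 and 16.5 CPM in the wild-type libraries and at 12.1, 18.8 and 22.2 CPM in the FTO-overexpressing libraries. Its highest library was FTO-OE 3 and its lowest FTO-OE 1, a range of 1.83-fold, and WT 2 kept 83.8% of the level of FTO-OE 2. As a share of Myh6 and Myh7 reads, Myh7 therefore went from 3.63% in FTO-OE 2 and 6.26% in WT 3 to 67.4% in WT 2. The slow troponin T gene Tnnt1, from a list of 3 other slow-fibre genes, was also level, at 0.974 to 1.59 CPM. Mhrt, an antisense RNA of the Myh7 locus, had 3, 0 and 3 counts and 3, 36 and 7 counts. The labels used here do not state whether counting was strand-aware. If it was not, Myh7 and antisense reads at that locus cannot be told apart.

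FTO-OE 2 was highest for all 7 genes of all striated muscle, and 5 of them had the full heart order; Tcap and Ckm had FTO-OE 3 above WT 3. Mb, the oxygen store myoglobin, was at 8.06, 0.682 and 29.9 CPM in the wild-type libraries and at 16.3, 92.2 and 25.1 CPM in the FTO-overexpressing libraries. Ttn, the giant spring protein titin, was at 5.63, 3.15 and 38.7 CPM and at 6.24, 99.8 and 15.9 CPM. Tcap, which caps titin at the Z-disc, was at 7.31, 2.41 and 12.6 CPM and at 8.22, 38.9 and 13.4 CPM. WT 3 was the next highest library for Mb and Ttn, and FTO-OE 3 for Tcap. Actn2, the Z-disc alpha-actinin of heart and skeletal muscle, was at 3.03, 1.10 and 17.4 CPM and at 4.31, 38.5 and 9.40 CPM. Ldb3, a Z-disc scaffold, was at 4.71, 3.52 and 16.4 CPM and at 5.13, 32.2 and 7.05 CPM. Across all 23 heart-expressed genes, 22 had FTO-OE 2 highest and WT 2 lowest, the exception being Myh7, and 18 had the same full order of 6 libraries.

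Both creatine kinase genes of this role showed a split that was picked out after their values were seen. Ckmt2, the mitochondrial form, was at 2.27, 0.105 and 9.50 CPM in the wild-type libraries and at 3.20, 23.0 and 6.40 CPM in the FTO-overexpressing libraries. Ckm, the cytosolic muscle form that is abundant in fast fibres, was at 2.06, 0.262 and 9.12 CPM and at 4.57, 21.6 and 16.8 CPM. FTO-OE 3 was thus above WT 3 for Ckm and below it for Ckmt2. Ckm made up 32.0% of Ckm and Myl7 reads in FTO-OE 3 (exact 95% interval 29.3% to 34.8%) and 7.69% to 15.4% in the other 5 libraries.

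**Figure D3:**
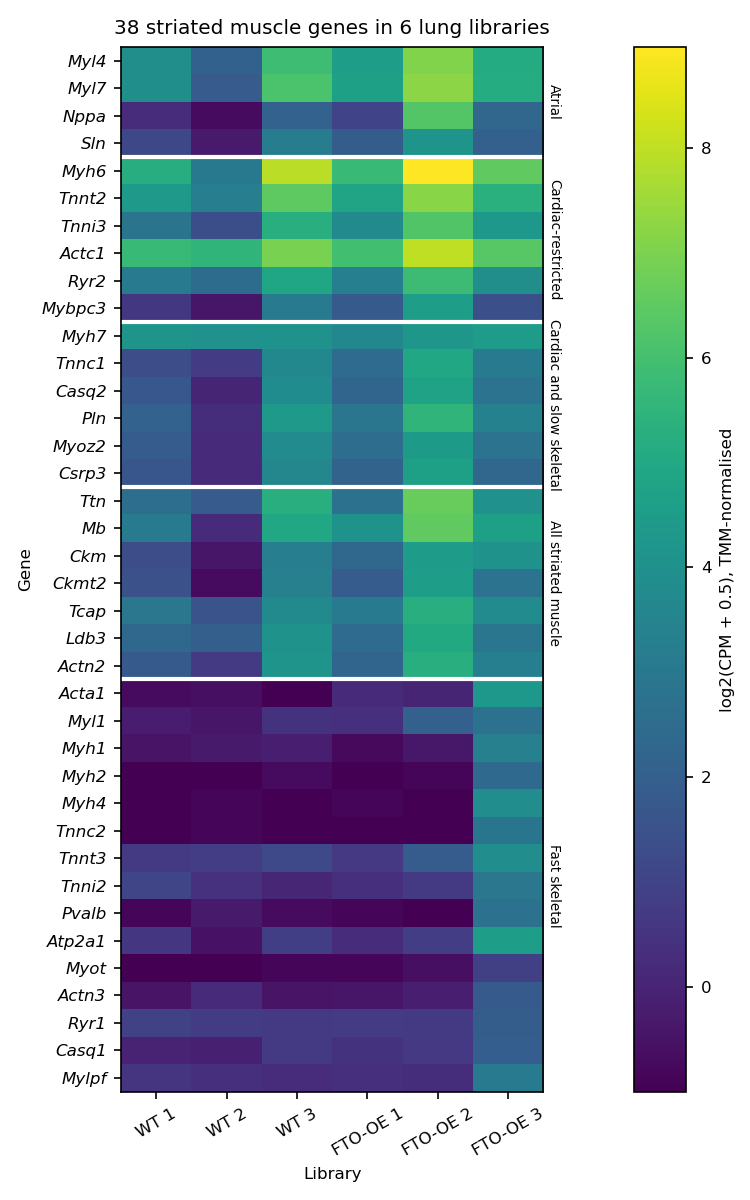
Level of each of the 38 genes as log2(CPM + 0.5), TMM-normalised (colour), in each of the 6 libraries (columns), with genes in rows by role. FTO-OE 2 is brightest in 22 of the upper 23 genes, all but Myh7, and FTO-OE 3 is brightest in all 15 fast skeletal genes.

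All 15 fast skeletal genes were highest in FTO-OE 3. Myh4, the heavy chain of the fastest fibres, was at 0, 0.0525 and 0 CPM in the wild-type libraries and at 0.0508, 0 and 14.1 CPM in the FTO-overexpressing libraries, or 307 counts in FTO-OE 3 and 2 counts in the other 5 together. Acta1, skeletal alpha-actin, was at 0.108, 0.157 and 0 CPM and at 0.660, 0.511 and 19.3 CPM. Atp2a1, the calcium pump of fast fibres, was at 0.974, 0.210 and 1.32 CPM and at 0.711, 1.25 and 23.6 CPM. For each of these, FTO-OE 3 stood alone and FTO-OE 1 and FTO-OE 2 were near the wild-type libraries, although FTO-OE 1 and FTO-OE 2 were above all 3 wild-type libraries for Acta1, with 13 and 9 counts. The ratio of FTO-OE 3 to the other 5 libraries pooled was 66.7 for Acta1 (95% counting interval 45.2 to 102.4) and 26.8 for Atp2a1 (21.2 to 34.3). For Myh4 it was 658 (181 to 5457), an interval that wide because the denominator is 2 counts.

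Fast troponins and light chains behaved alike but with a floor in the other libraries. Tnnt3, fast troponin T, was at 1.14, 1.26 and 1.81 CPM in the wild-type libraries and at 1.07, 3.24 and 14.5 CPM in the FTO-overexpressing libraries. Tnni2, fast troponin I, was at 1.62, 0.839 and 0.549 CPM and at 0.812, 1.14 and 7.14 CPM. Mylpf, the fast regulatory light chain, was at 0.920, 0.787 and 0.714 CPM and at 0.812, 0.738 and 7.83 CPM. The ratios of FTO-OE 3 to the other 5 pooled were 8.63, 7.22 and 9.85. Myl1, the fast essential light chain, was at 0.379, 0.262 and 0.879 CPM and at 0.761, 3.63 and 6.13 CPM. For Myl1 and Tnnt3, FTO-OE 2 was also above the wild-type libraries and FTO-OE 1, more so for Myl1. Among the remaining fast genes, Myh1, Myh2, Tnnc2 and Pvalb had at most 0.385 CPM outside FTO-OE 3 and 4.74 to 9.72 CPM in it. Myh1 and Myh2 are the heavy chains of 2X and 2A fibres, Tnnc2 the fast troponin C and Pvalb the calcium buffer parvalbumin. Ratios for Casq1 (calsequestrin 1), Actn3 (alpha-actinin of fast fibres) and Myot (Z-disc myotilin) were 4.40, 8.44 and 24.9. Ryr1, the skeletal ryanodine receptor, had the smallest ratio, 2.77 (95% counting interval 2.03 to 3.75). In FTO-OE 3 the fast heavy chains had 307 counts for Myh4, 211 for Myh1 and 103 for Myh2; reads of these similar genes can be divided between them in counting.

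Setting a fast skeletal gene beside its cardiac paralog in the same library removes the library total from the comparison. Acta1 made up 18.9% of Acta1 and Actc1 reads in FTO-OE 3 and at most 1.06% in the other 5 libraries. Tnnc2 was 45.8% of Tnnc2 and Tnnc1 reads in FTO-OE 3 (exact 95% interval 40.3% to 51.4%). It had 1 of 23 such reads in WT 2 and 0 in the other 4, which in FTO-OE 2 allows a share of up to 0.692%. Myh4 was 13.3% of Myh4 and Myh6 reads in FTO-OE 3 and at most 0.685% elsewhere. Tnnt3 was 26.9% of Tnnt3 and Tnnt2 reads in FTO-OE 3 and 12.3% in WT 2, with intervals of 24.4% to 29.6% and 8.05% to 17.8%. Those 4 pairs set FTO-OE 3 apart from every other library. For Tnni2 and Mylpf the shares in FTO-OE 3, 27.0% and 18.0%, lay within the intervals of WT 2, where the cardiac partners Tnni3 and Myl7 had only 41 and 60 counts. The same held for Actn3, Casq1 and Ryr1 beside Actn2, Casq2 and Ryr2. Their shares were 24.2%, 34.9% and 18.4% in FTO-OE 3 and 38.2%, 44.4% and 18.5% in WT 2. These pairs thus did not set FTO-OE 3 apart from WT 2.

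**Figure D4:**
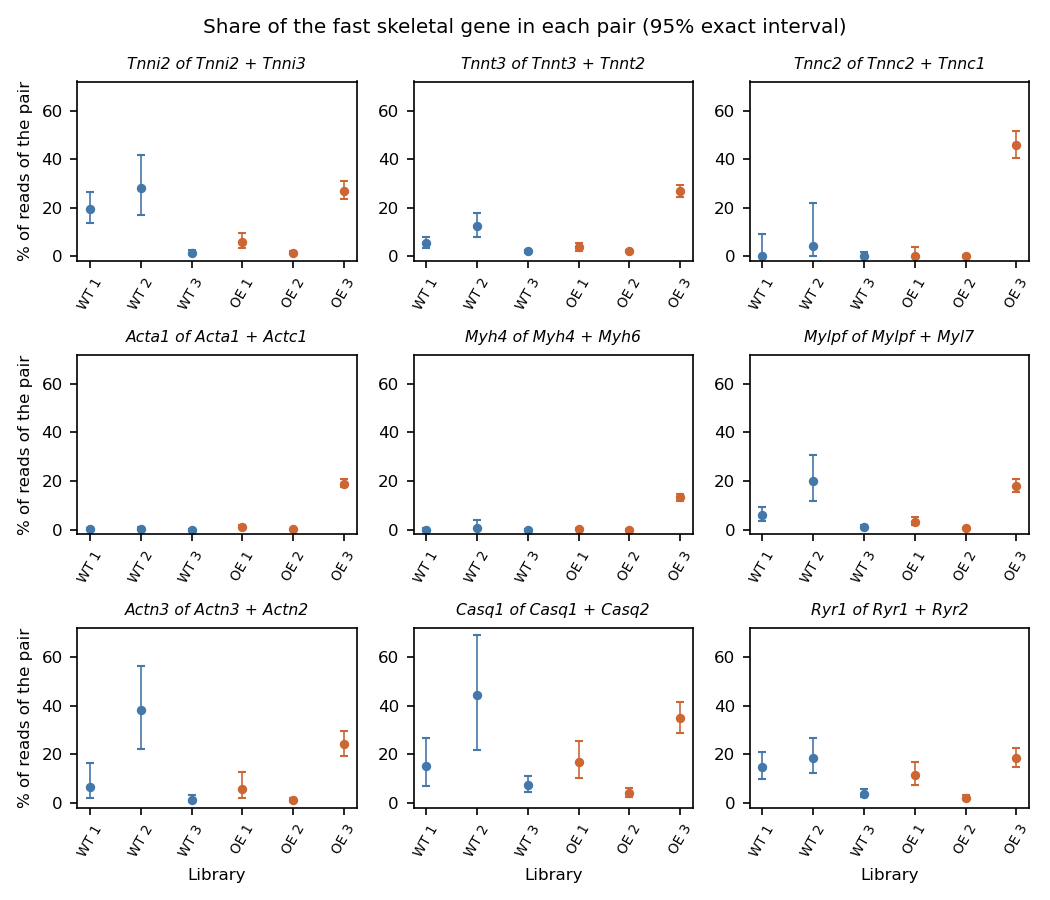
Percent of the reads of each pair that belong to the fast skeletal gene, per library, with exact 95% intervals; blue points are wild-type, orange points FTO-overexpressing. FTO-OE 3 lies above all other libraries for Tnnt3, Tnnc2, Acta1 and Myh4. The low-count library WT 2 lies above it in the other pairs shown, Tnni2, Mylpf, Actn3, Casq1 and Ryr1.

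Heart-type genes had the highest levels also in FTO-OE 3. Per kilobase of exon (lengths from GENCODE M21), Myl7 and Actc1 were the 2 highest of the 38 genes in FTO-OE 3, at 60.3 and 56.2 CPM per kilobase, and the highest fast skeletal gene was Acta1 at 13.4, 9th in rank. In FTO-OE 2 Myl7 and Actc1 led at 253.0 and 175.5 CPM per kilobase, followed by Tnnt2 at 116.1, Myl4 at 112.0 and Nppa at 90.2. Read by library, then, WT 1, WT 2, WT 3, FTO-OE 1 and FTO-OE 2 carried atrial and cardiac genes at widely different levels with fast skeletal sums of 13.6 CPM or less. FTO-OE 3 carried both, with a heart-type sum of 329.2 CPM and a fast skeletal sum of 131.4 CPM.

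Related lists outside the 38 genes gave further values. Of 18 other cardiac genes, 17 were highest in FTO-OE 2. The exception was Myzap, a protein of the intercalated disc, which was level at 135.6 to 155.0 CPM. In edgeR 0 of 16 tested passed an adjusted p of 0.05, beside 0.0942% of all genes tested. At an unadjusted p under 0.05 there were 0 of 16, beside 9.44% of all genes tested. Kcnj3, a subunit of the acetylcholine-gated potassium channel of the atrium, was at 0.595, 0.105 and 8.24 CPM and at 1.62, 11.4 and 2.07 CPM, in the heart order. It comes from a list of other atrial genes, of which 3 were tested and 0 passed. Kcnj5, a partner subunit, was also highest in FTO-OE 2 and lowest in WT 2. Kcna5, another potassium channel, was highest in WT 1 (1.46 CPM) and lowest in FTO-OE 3 (0.276 CPM). Bmp10, a growth factor of the atrium, had 0 counts in every library. Of 16 other skeletal genes, 8 were highest in FTO-OE 2 and 7 in FTO-OE 3, and 0 of 11 tested passed. The 2 of this list with the highest mean level, Pygm and Eno3, were both highest in FTO-OE 2, at 37.3 and 28.7 CPM. In FTO-OE 3 they were at 25.8 and 17.7 CPM. Mybpc1, a skeletal myosin-binding protein C, chosen after its values were seen, had 91 counts in FTO-OE 3 and 1 in the other 5 libraries. Mybpc2 of the same list differed less, with 73 counts in FTO-OE 3 and 18 to 33 in each other library. None of 9 myogenic and end-plate genes reached the filter on low counts.

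The genes most like each sum were named by the highest Pearson r of log2(CPM + 0.5) over the 6 libraries. Candidates were 14169 tested genes outside the list with a mean of at least 1 CPM, predicted and clone-named loci left out. For the heart-type sum they were Smyd1 (r = 0.999), Trim54, Smpx, Dhrs7c, Tbx20, Srl, Fndc5 and Synpo2l (r = 0.992). Tbx20 is a cardiac transcription factor, and Smyd1 a methyltransferase of striated muscle. For the fast skeletal sum the most alike were Chfr (r = 0.984), Nubp2, Lrp10, Galnt12, Emg1, Armh3, Epn1 and Gpd1l (r = 0.972). Genes below the filter on low counts, as 7 of the 15 fast skeletal genes were, could not appear here. Chfr moved only between 35.4 and 44.9 CPM, against a 20.0-fold range of the fast skeletal sum. These correlations share the libraries and their depth, rest on 6 points and on the single high library in the second case, and are a description only.

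Between the groups, no muscle gene passed the threshold. Of 16989 genes tested with edgeR's quasi-likelihood test, 16 (0.0942%) had a Benjamini-Hochberg adjusted p under 0.05, and 0 of the 31 muscle genes tested were among them. The other 7, all fast skeletal (Myh1, Myh2, Myh4, Tnnc2, Pvalb, Myot and Actn3), did not pass the filter on low counts. At an unadjusted p under 0.05 there were 5 of 31 (16.1%) beside 9.44% of all genes tested: Nppa, Acta1, Myl1, Tnnt3 and Atp2a1. All 5 were fitted higher with FTO overexpression, beside 5.77% of all genes tested that had such a p in that direction. DESeq2 called 1 of 31 (Myl1) beside 2.5% of all genes, and limma-voom 0 of 31 beside 0.0294%. Acta1 and Atp2a1 were given no adjusted p by DESeq2, so it could not call them. Without its low-count filter edgeR called 2 of 38 (Acta1 and Myl1) beside 0.972%. The groups did not overlap for 1 of the 38 genes (2.63%), Acta1, beside 7.94% of all genes tested with every FTO-overexpressing library above every wild-type library. Acta1 passed the filter through the FTO-overexpressing libraries alone.

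The fitted differences had wide errors. Myl7 was 29.4 ± 35.7 CPM (SD, n = 3) in wild-type and 70.0 ± 68.9 CPM (SD, n = 3) in FTO-overexpressing lungs, a fitted log2 fold change of 1.25 ± 1.03 (SE, edgeR adjusted p = 0.790). For Myh6 it was 1.14 ± 1.21 (SE, edgeR adjusted p = 0.851) and for Nppa 4.17 ± 1.58 (SE, edgeR adjusted p = 0.455). Without FTO-OE 2 the Nppa value was 0.93. For Acta1 it was 6.17 ± 1.81 (SE, edgeR adjusted p = 0.293) and for Myl1 2.79 ± 0.78 (SE, edgeR adjusted p = 0.260, the smallest adjusted p of the 31). Atp2a1 had 3.36 ± 1.34 and Tnnt3 2.16 ± 0.85 (SE, edgeR adjusted p = 0.491 and 0.478). Without FTO-OE 3, Acta1 was 2.63, Myl1 2.10, Atp2a1 0.23 and Tnnt3 0.61. None of these differences passed the threshold against the spread between libraries. Myh7 had the smallest difference and error, 0.10 ± 0.21 (SE, edgeR adjusted p = 0.937), with a 95% interval from -0.38 to 0.58.

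All 31 fitted log2 fold changes were above 0, beside 51.5% of all genes tested. The medians were 1.29 for atrial, 1.04 for cardiac-restricted, 1.12 for heart and slow skeletal, 1.43 for all striated muscle and 2.06 for the 8 tested fast skeletal genes, beside 0.0069 over all genes. Many of these signs changed when a single library was left out. Without FTO-OE 2, 12 of the 23 heart-expressed genes stayed above 0, beside 48.8% of all genes, and the heart-type sum went from 2.18 times the wild-type mean to 0.905 times. Without FTO-OE 3, 5 of 8 fast skeletal genes stayed above 0, beside 51.7% of all genes, and the fast skeletal sum went from 6.79 to 1.41 times. Without WT 3, the highest wild-type library, 24 of 32 muscle genes tested had an unadjusted p under 0.05, beside 7% of all genes in that fit. None of the 32 had an adjusted p under 0.05, beside 0.00576% of all genes.

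**Figure D5:**
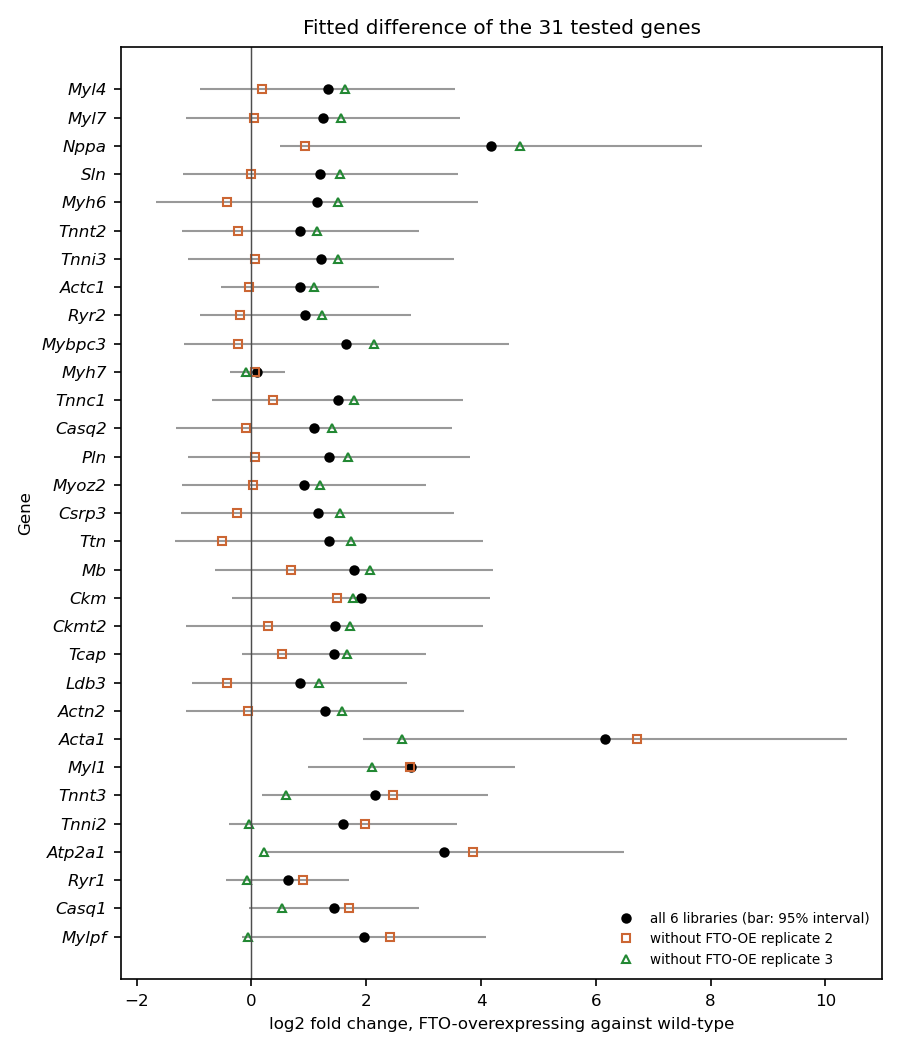
Fitted log2 fold change of the 31 tested genes, FTO-overexpressing against wild-type, with 95% intervals (black), and the same without FTO-OE replicate 2 (orange squares) or FTO-OE replicate 3 (green triangles). Without FTO-OE 2, 12 of the 23 heart-expressed genes lie above 0; without FTO-OE 3, 5 of the 8 fast skeletal genes do, with Acta1 and Myl1 still at 2.63 and 2.10.

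Levels of these genes varied widely between libraries. Over the 6 libraries the SD of log2(CPM + 0.5) had a median of 1.56 for the 31 tested muscle genes and 0.178 for all 16989 genes. There were 24 of the 31 in the top 1% of all genes by this SD (170 genes) and 29 in the top 5%. Myh7, at 0.28, and Ryr1, at 0.49, were outside. This SD includes the difference between groups, and the genes were picked with such a spread in view.

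Genes of other tissues were read in the same libraries. FTO-OE 2, the library with the most heart-type RNA, also had the most white fat RNA, 44.8 CPM over 4 genes beside 0.866 to 8.76 CPM in the others, with Adipoq (adiponectin) at 10.1 CPM. It had the highest smooth muscle sum as well, 1023 CPM over 9 genes beside 630.1 to 802.7 CPM. Brown fat genes were highest there too, 13.2 CPM over 5 genes beside 2.99 to 7.86 CPM, with WT 3 next. That sum rested on Cox7a1, Cox8b and Cidea, at 5.28, 4.37 and 3.24 CPM in FTO-OE 2, and Cox7a1 had the full heart order. Ucp1 and Elovl3 had only 2 and 3 counts in FTO-OE 2. Cartilage genes were also highest in FTO-OE 2, 18.5 CPM over 4 genes beside 7.63 to 11.6 CPM, with Chad alone at 17.3 CPM. Acan had 14 counts there and 0 in every other library, and Col2a1 had 8 counts beside 0 to 3. Matn1 had 0 counts there and 1 in FTO-OE 3. The lung sum of FTO-OE 2 was the lowest, 35280 CPM beside 42011 to 49960 CPM. FTO-OE 3, the library with fast skeletal RNA, had the lowest mesothelial sum, 134.0 CPM beside 159.9 to 216.1 CPM. Krt19 alone held 99.9 CPM of that sum, and ran from 99.9 to 138.8 CPM over all libraries. Upk3b, Upk1b, Lrrn4 and Krt19 were lowest in FTO-OE 3, but Msln was lowest in WT 1 and Wt1 in FTO-OE 2. FTO-OE 3 also had the lowest haemoglobin sum, 3639 CPM beside 8490 to 33684 CPM. Thymus genes summed to at most 0.315 CPM and oesophageal squamous genes to at most 1.31 CPM in any library. That squamous maximum was in FTO-OE 2, with 23 counts beside 1 to 6 in the others. Krt5 held 18 of the 23, and every other gene of that list had at most 4 counts in any library. The part of any of these tissues in the muscle values was not tested.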

How the data were processed

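Lung RNA of 6 samples was sequenced after poly(A) selection with a stranded Illumina kit, per the labels' protocols. The authors deposited 1 table of expected counts, in which an estimated gene count can be a fraction. The submitters' processing notes name fastp, HISAT2 and StringTie. Their versions, the build, the annotation and the use of strand in counting were not given in the sources used here. Reads of paralogs and of antisense genes may therefore be shared.

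Columns were matched to samples by the column name in each label. Of 57180 rows, 525 had no symbol, took 0.119% to 0.143% of a library's counts and were kept under their gene identifiers. Values were rounded. In R 4.3.3, edgeR 4.0.16 was run with filterByExpr, TMM scaling, a group term and the quasi-likelihood F-test, with Benjamini-Hochberg adjustment over 16989 genes and a threshold of 0.05. The procedure was tested on simulated counts. SE and intervals follow from the F statistic. Intervals on sums are exact Poisson and those on shares exact Clopper-Pearson, at 95%, and cover counting error only, since no molecular identifiers were used. The floor for a count of 0 is 3 counts where no exact limit is given.

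The 38 genes and all lists were chosen with earlier results of these data known. Values in every library are given for up to 5 genes per role with the highest mean, for genes with an unadjusted p under 0.05 and for defining genes of each tissue; of other lists the 2 highest genes, where a result turned on them. Alternatives were RLE, upper-quartile and no composition scaling, no filter or a mean of 50 counts, DESeq2 1.42.0, limma-voom (limma 3.58.1), a replicate block, removal of haemoglobin, immunoglobulin and mitochondrial genes, the 38 genes left out of scaling, thresholds of 0.01 and 0.1, and each library left out. 1 gene of the related lists is not reported here.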

Additional observations from a re-analysis of the deposited data

How the results depend on the processing

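The edgeR test called 16 genes over all genes. It was 424 with DESeq2, 287 with no filter on low counts, 31 after removal of haemoglobin, immunoglobulin and mitochondrial genes, 5 with limma-voom, 1 at a threshold of 0.01, 70 at 0.1 and from 1 to 49 with each library left out. Whether replicate numbers pair the samples is not stated. Correlations of same-numbered deviations were 0.130, -0.33 and -0.35, which with 3 libraries per group cannot settle it. With the replicate block 2 genes were called. Of the 38 muscle genes, 0 were called, also with the block and in every fit without 1 library; 1 was called with DESeq2, which gave 2 no adjusted p, and 2 with no filter. The cause was not tested. The fast skeletal median of 2.06 was 3.38 with no filter and 4.77 with a mean of at least 50 counts, where other genes were tested. With each library left out it ran from 0.38 to 2.42, lowest without FTO-OE 3. The other medians ran from 0.12 to 2.97 (atrial), -0.21 to 2.65 (cardiac-restricted), 0.044 to 2.81 (heart and slow skeletal) and 0.28 to 3.19 (all striated muscle), lowest without FTO-OE 2 and highest without WT 3. Of 397 alternative fits of 25 named genes, 382 kept direction and call and 12 reversed, 9 without FTO-OE 2 and 3 without FTO-OE 3; 3 were newly called. Without 1 library the log2 fold change ran from -0.045 to 1.44 for Actc1, -0.057 to 3.07 for Actn2, -0.094 to 2.90 for Casq2, -0.43 to 1.84 for Ldb3, -0.42 to 3.28 for Myh6, -0.20 to 1.99 for Ryr2, -0.013 to 2.98 for Sln, -0.23 to 2.29 for Tnnt2 and -0.51 to 3.21 for Ttn. It ran from -0.097 to 0.31 for Myh7, -0.058 to 2.42 for Mylpf and -0.049 to 2.14 for Tnni2. The 7 fast skeletal genes outside the test had few counts in every library but FTO-OE 3.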
